A study of Mus musculus with 16 samples.

Results

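Embryonic mouse hearts that carry the CreERT2 allele of Tbx5 opposite the del allele (Tbx5 del/CreERT2) were compared with hearts that carry the del allele opposite a normal copy (Tbx5 del/+). The comparison rests on the 4 del/CreERT2 and the 4 del/+ libraries named in the raw count columns, which are 8 of the 16 libraries of the series. The other 8 are 4 Tbx5 CreERT2/+ and 4 wild-type (WT) libraries. Both compared genotypes hold the del allele, so the contrast asks how hearts differ when the remaining copy is the CreERT2 allele in place of the normal one. All libraries come from embryonic hearts taken at E10.5, midway through mouse gestation. No drug treatment is listed. The labels do not say where in Tbx5 either altered allele was changed, how many embryos gave each library, or whether the 4 libraries of a genotype are litter mates. The p-values therefore measure the spread between these libraries, part of which may be technical.

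Tbx5 is a T-box transcription factor needed to form the heart and the forelimbs. It works in the atria, in the left ventricle and in the cells that become the conduction system, and its dose matters: loss of a single human copy causes Holt-Oram syndrome, with septal and conduction defects. CreERT2 is a Cre recombinase fused to an altered oestrogen receptor, so that it acts on DNA after tamoxifen; where it is placed into a gene it can lower or end that gene's own product. In the embryonic heart, gap junction proteins and ion channel subunits set how fast current spreads, and their genes are often discussed beside the T-box factors.

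Total counts ran from 22455265 to 40365171 in del/CreERT2 libraries and from 25459500 to 29595204 in del/+ libraries. Mitochondrial ribosomal RNA took 53.6% to 74.9% of the counts in del/CreERT2 and 66.5% to 71.3% in del/+, which left 7430626 to 16796193 and 7844021 to 9902408 counts for all other genes. del/CreERT2 3 had the lowest mitochondrial share of the 8 and stood apart from the other 7 on the first principal component over all 16 libraries, at 36.0 against -18.8 to -3.06. The genotypes also separated by measures taken over genes as a whole, list members included: 20550 to 21712 genes had a count in del/CreERT2 and 18246 to 19189 in del/+. On the second principal component, with 9.59% of the variance, del/CreERT2 lay at -54.3 to -11.2 and del/+ at -4.25 to 10.7. The part that these measures play in the results below was not tested. Xist was high in del/CreERT2 1 and 4 (200.1 and 181 CPM) and in del/+ 3 (218.4 CPM), and at 31.19 CPM in del/CreERT2 2, which also held the Y-linked Kdm5d at 19.85 CPM. CPM are counts scaled to the library total, corrected by TMM factors for composition, with mitochondrial ribosomal RNA kept in the total. Heart markers were abundant: sarcomere genes summed to 23800 to 26300 CPM in del/CreERT2 and 22000 to 24900 CPM in del/+.

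Tbx5 transcripts were less abundant in these del/CreERT2 libraries than in the del/+ libraries, by a difference near the limit of the tests. Tbx5 (ENSMUSG00000018263, chromosome 5, 120284672 to 120335227 in mm9) stood at 21.5, 24.2, 23.6 and 20.3 CPM in the 4 del/CreERT2 libraries, against 41.5, 29.6, 24.8 and 28.8 CPM in the 4 del/+ libraries. All 4 del/CreERT2 values lay below all 4 del/+ values, though del/CreERT2 2 and del/+ 3 were close, and del/+ 1 was the highest. The log2(CPM + 1) difference was -0.44 with p = 0.0286 in a two-sided exact permutation test, the smallest p that 4 against 4 libraries can give. Leaving out any 1 library moved the difference to between -0.54 and -0.30, with p = 0.0571 in the exact test, the smallest that 3 against 4 allows. In edgeR's quasi-likelihood test over all genes the log2 difference was -0.48 ± 0.25 (SE). Its 95% interval of -0.99 to 0.04 included 0 (unadjusted p = 0.0685, adjusted p = 0.999 by edgeR). The means were 22.4 ± 1.79 CPM in del/CreERT2, 31.2 ± 7.18 CPM in del/+, 24.5 ± 9.91 CPM in CreERT2/+ and 19.7 ± 5.24 CPM in WT (SD, n = 4 each). The count covers the whole gene, so it does not show which part of the transcript an altered allele keeps and does not check the genotypes.

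Only 3 genes passed the test across the transcriptome, and all of them were lower in del/CreERT2: Ap3b2, Gja5 and Stard10. They are 3 of 14612 tested genes (0.0205%; edgeR quasi-likelihood test, Benjamini-Hochberg adjusted p under 0.05, fitted to all 16 libraries). No gene passed in the other direction. At an unadjusted p under 0.05 there were 742 genes (5.08%), of which 419 (2.87%) were higher and 323 (2.21%) lower. DESeq2 called 7 genes higher and limma-voom called 1. The median log2 difference over all tested genes was 0.0.

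Ap3b2 showed the largest change of the 3. It encodes a beta subunit of AP-3, the adaptor that sorts membrane cargo toward lysosome-related organelles and synaptic vesicles, in the form known from neurons. Ap3b2 (ENSMUSG00000062444, chromosome 7, 88605285 to 88638811, minus strand, mm9) was at 0.147, 0.202, 0.31 and 0.316 CPM in del/CreERT2, against 2.97, 4.08, 5.03 and 5.16 CPM in del/+. The groups were far apart: the 4 del/CreERT2 libraries held 39 counts in all and the 4 del/+ libraries 445. The fall was 16.5-fold, a log2 difference of -4.05 ± 0.33 (95% interval -4.72 to -3.37, adjusted p = 3.54e-07 by edgeR). The CreERT2/+ libraries averaged 4.74 ± 1.23 CPM and the WT libraries 6.17 ± 1.36 CPM, so del/CreERT2 was the lowest of the 4 genotypes.

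Gja5 followed. It encodes connexin 40, a gap junction channel of atrial muscle, of the ventricular trabeculae that give rise to the conduction system, and of arterial endothelium. Gja5 (ENSMUSG00000057123, chromosome 3, 96708616 to 96881339, plus strand, mm9) had 5.3, 2.89, 4.54 and 4.82 CPM in del/CreERT2, against 20.7, 20.1, 17.6 and 14.1 CPM in del/+. No library overlapped, with del/CreERT2 2 lowest and del/+ 4 the lowest of its genotype. Gja5 fell 4.14-fold (log2 -2.05 ± 0.24, 95% interval -2.55 to -1.55, adjusted p = 0.000182 by edgeR). The means were 4.39 ± 1.04 CPM in del/CreERT2, 18.1 ± 3.0 CPM in del/+, 33.2 ± 5.22 CPM in CreERT2/+ and 53.4 ± 16.5 CPM in WT. The highest CreERT2/+ library (38.9 CPM) lay above the lowest WT library (38.0 CPM). Gja5, like Ap3b2 and Stard10, belongs to a set picked earlier on these same samples because altered hearts differed from WT. The place of these genes against WT is therefore no independent evidence. In bulk RNA from hearts, fewer Gja5-expressing cells and less Gja5 RNA per cell cannot be told apart.

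Stard10, which encodes a START-domain protein that moves phospholipids between membranes, was the third. Stard10 (ENSMUSG00000030688, chromosome 7, 108465600 to 108495140, plus strand, mm9) had 2.01, 3.36, 1.29 and 2.19 CPM in del/CreERT2, against 8.61, 13.8, 4.93 and 10.2 CPM in del/+. The libraries did not overlap, but both genotypes varied: del/CreERT2 3 and del/+ 3 were the lowest of their groups. Stard10 fell 4.27-fold (log2 -2.09 ± 0.33, 95% interval -2.79 to -1.4, adjusted p = 0.0136 by edgeR). Its call was the weakest, with an adjusted p from 1.85e-10 to 0.11 over 28 alternatives. The adjusted p was 0.104 with 7SK as a covariate, where the log2 difference was -1.34, and 0.0893 with Xist as a covariate, and it lay between 0.0618 and 0.11 without del/+ 2, del/+ 4, del/CreERT2 1, del/CreERT2 3 or del/CreERT2 4. CreERT2/+ and WT hearts averaged 7.87 ± 2.75 and 9.08 ± 1.84 CPM.

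**Figure D1:**
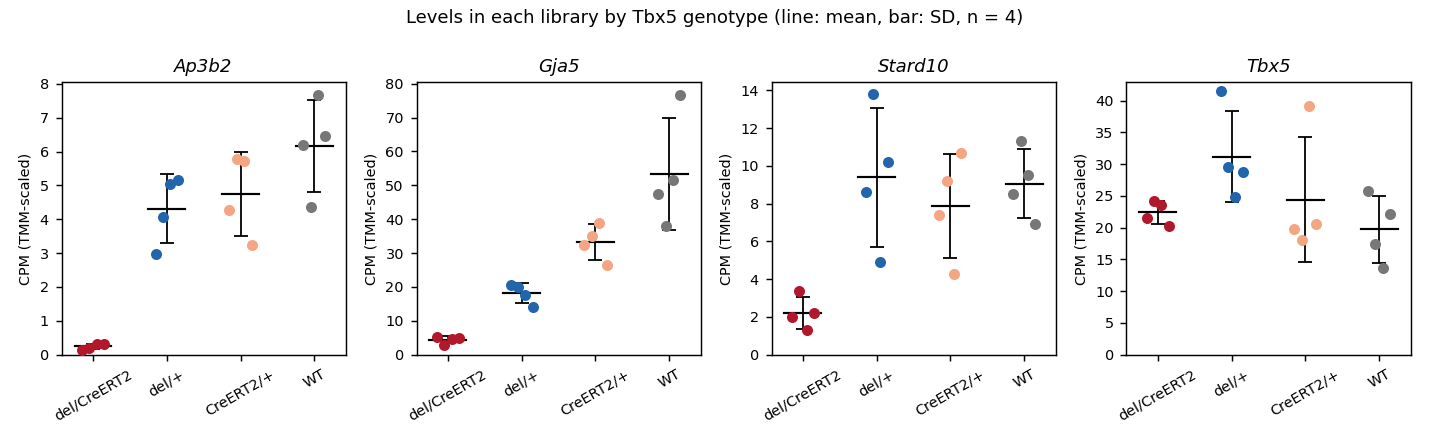
TMM-scaled CPM (y axis, from 0) of Ap3b2, Gja5, Stard10 and Tbx5 in each library of the 4 Tbx5 genotypes; points are libraries, lines means and bars SD (n = 4). For all 4 genes the del/CreERT2 points lie below every del/+ point; Gja5 averages 4.39 CPM in del/CreERT2, 18.1 CPM in del/+, 33.2 CPM in CreERT2/+ and 53.4 CPM in WT.

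The promoters of the 3 genes are shown because T-box factors bind a short core motif, which can be looked for upstream of each start. The sequences are the 250 bases before the RefSeq start of each gene in GRCm38.p6, read 5′ to 3′ on the gene's strand, with the core GGTGT in capitals. All 3 genes matched the RefSeq table, whose build differs from the mm9 positions given above.
Ap3b2, chr7:81493926-81494175, minus strand: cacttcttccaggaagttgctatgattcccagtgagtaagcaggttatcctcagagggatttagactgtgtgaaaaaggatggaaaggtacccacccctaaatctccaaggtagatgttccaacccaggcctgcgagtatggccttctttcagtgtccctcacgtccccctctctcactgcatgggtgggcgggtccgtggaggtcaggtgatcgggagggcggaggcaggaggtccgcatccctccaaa
Gja5, chr3:97032152-97032401, plus strand: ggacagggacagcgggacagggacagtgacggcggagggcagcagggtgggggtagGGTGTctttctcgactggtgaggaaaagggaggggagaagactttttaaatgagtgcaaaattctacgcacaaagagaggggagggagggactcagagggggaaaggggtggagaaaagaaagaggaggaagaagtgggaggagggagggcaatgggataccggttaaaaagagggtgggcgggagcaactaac
Stard10, chr7:101316836-101317085, plus strand: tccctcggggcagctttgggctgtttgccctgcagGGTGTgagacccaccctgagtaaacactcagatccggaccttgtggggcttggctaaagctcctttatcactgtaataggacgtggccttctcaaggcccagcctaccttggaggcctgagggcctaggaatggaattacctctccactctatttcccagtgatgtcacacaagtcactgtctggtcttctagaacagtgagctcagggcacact
The motifs AGGTGT and AGGTGTGA, searched on both strands, were in none of the 3 windows. Of 32851 promoter windows of the same length in the RefSeq table, 11.8% hold AGGTGT and 1.12% hold AGGTGTGA. The shorter core GGTGT, which lies inside both and was chosen after the promoters were seen, occurs at position -194 of Gja5 and at position -215 of Stard10, counted from the start, and not in Ap3b2. It is present in 36.2% of all windows, so these matches are a description of the letters only, and binding was not tested.

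The genes next to the 3 were examined in turn, a choice made after the values were seen. Within 500 kb of Gja5, 21 other genes were tested and none passed, with a median log2 difference of 0.0 and a range from -0.95 to 0.65. The lowest was Acp6, which encodes a lysophosphatidic acid phosphatase of mitochondria, at 2.71 CPM in del/CreERT2 and 5.24 CPM in del/+ (log2 -0.95 ± 0.26, adjusted p = 0.544 by edgeR). Acp6 and Bcl9 were the 2 of these 21 genes at an unadjusted p under 0.05, a level that 5.08% of all tested genes reached. Bcl9 averaged 12.8 CPM in del/CreERT2 and 19.0 CPM in del/+ (log2 -0.58 ± 0.23). Both are the nearest tested genes downstream of Gja5, and both were lower. Gpr89, on the upstream side, was at log2 0.34 ± 0.23. Near Ap3b2, 12 of 16 tested genes had a negative difference (median -0.14), and near Stard10 5 of 12 did (median 0.03). None of these passed either. Over all tested genes, 7232 of 14612 had a negative difference.

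The close relatives of the 3 genes did not pass. Of the 7 AP-3 subunit genes tested, Ap3b2 alone was called, and the other 6 lay between -0.32 and 0.10 on the log2 scale. Ap3d1, the delta subunit, averaged 14.1 ± 3.5 CPM in del/CreERT2 and 17.7 ± 3.24 CPM in del/+ (log2 -0.32 ± 0.24), and Ap3b1, the widely expressed beta subunit, averaged 23.4 ± 3.9 and 25.8 ± 3.28 CPM (log2 -0.14 ± 0.21). Per kilobase of transcript, Ap3b2 stood at 0.0387 CPM in del/CreERT2 and 0.685 CPM in del/+, against 5.83 and 6.42 CPM per kilobase for Ap3b1, so Ap3b2 was the minor beta subunit in both genotypes.

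Among 6 tested connexin and gap junction genes, Gja5 alone was called and the median was -0.12 (0.02 without del/+ 2). Gjc1, connexin 45 of the nodes, averaged 12.2 ± 2.4 CPM in del/CreERT2 and 9.51 ± 2.82 CPM in del/+ (log2 0.36 ± 0.24), and its sign was opposite with 7SK as a covariate (log2 -0.04). Gja4, connexin 37 of endothelium, averaged 5.07 ± 0.995 and 5.67 ± 1.53 CPM (log2 -0.16 ± 0.3). Per kilobase, Gja5 was at 0.763 CPM in del/CreERT2 and 3.16 CPM in del/+, where Gja1, connexin 43 of working muscle, was at 9.06 and 9.58 CPM. Of the 13 START-domain genes tested, Stard10 alone was called. Stard5, a sterol carrier, was lower in all 4 del/CreERT2 libraries than in all 4 del/+ libraries (6.31 ± 0.584 and 8.29 ± 0.558 CPM; log2 -0.39 ± 0.19) and did not pass (adjusted p = 0.985 by edgeR).

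Beyond the called genes, 612 genes (4.19% of those tested) had del/CreERT2 and del/+ libraries that did not overlap, 251 (1.72%) below and 361 (2.47%) above. The genes named next are the 12 in each direction with the lowest unadjusted p among such genes, leaving out predicted, small RNA, histone and sex-linked genes. The groups were chosen not to overlap, so that feature of them is no result. In the downward direction the 9 that did not pass had log2 differences from -2.11 to -0.84 and adjusted p from 0.21 to 0.357.

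**Figure D2:**
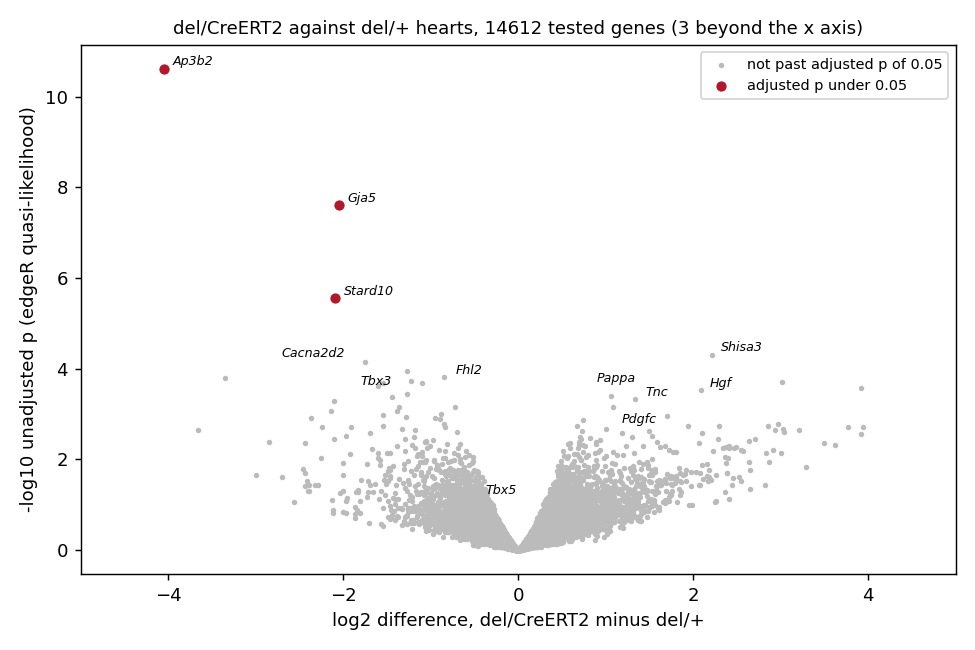
Log2 difference between del/CreERT2 and del/+ (x axis) against -log10 of the unadjusted edgeR p (y axis) for 14612 tested genes, with 3 genes beyond the x axis. The 3 red points, Ap3b2, Gja5 and Stard10, are the genes with an adjusted p under 0.05, and all lie on the lower side.

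The first described here are a channel subunit and a transcription factor. Cacna2d2, an auxiliary alpha2delta subunit that brings voltage-gated calcium channels to the membrane, had 4.46, 6.46, 9.53 and 3.56 CPM in del/CreERT2, against 16.7, 20.8, 18.7 and 24.7 CPM in del/+. Its highest del/CreERT2 value was in library 3, which stood apart in composition. The log2 difference was -1.75 ± 0.36 (adjusted p = 0.21 by edgeR), and it was -2.07 with adjusted p = 8.87e-05 when the 3 libraries poorest in mitochondrial ribosomal RNA (del/CreERT2 3, CreERT2/+ 3 and WT 4) were left out. Over 28 alternatives the adjusted p ran from 1.33e-08 to 0.585, under 0.05 in 8.

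Tbx3, a T-box repressor that sets nodal identity, had 1.62, 2.02, 1.53 and 0.816 CPM in del/CreERT2, against 3.54, 3.96, 2.95 and 3.91 CPM in del/+ (log2 -1.27 ± 0.3, adjusted p = 0.306). It is the nearest T-box gene to Tbx5 on chromosome 5. The CreERT2/+ and WT averages of Tbx3, 5.28 and 4.13 CPM, were on the del/+ side of the del/CreERT2 range. Tbx3 too had been picked earlier on these same samples for differing from WT.

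Others act in muscle and at membranes. Fhl2, a LIM-domain cofactor of heart muscle, had 10.3 to 14.1 CPM in del/CreERT2 and 20.1 to 21.4 CPM in del/+, a narrow spread in both (log2 -0.84 ± 0.18, adjusted p = 0.231). Cav1, which forms caveolae, averaged 15.2 ± 2.98 and 35.7 ± 7.28 CPM (log2 -1.23 ± 0.27), and Tmem163, a zinc transporter, 4.75 ± 0.854 and 10.2 ± 2.77 CPM (log2 -1.1 ± 0.25). Ifltd1 averaged 1.1 ± 0.335 CPM in del/CreERT2 and 3.15 ± 0.427 CPM in del/+. The lysozyme genes Lyz2 and Lyz1 averaged 5.04 ± 2.32 and 0.629 ± 0.41 CPM in del/CreERT2, against 13.7 ± 2.74 and 2.56 ± 0.906 CPM in del/+. They are near-identical neighbours, so reads may be split between them and the single values are uncertain.

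In the upward direction the 12 genes had log2 differences from 0.57 to 2.22 and adjusted p from 0.18 to 0.732, so none passed. Shisa3, of a family known in frogs to hold back Wnt and FGF receptors, had 1.42, 3.13, 2.92 and 2.32 CPM in del/CreERT2, against 0.915, 0.6, 0.208 and 0.387 CPM in del/+. All 4 del/CreERT2 libraries also lay above the highest CreERT2/+ (0.559 CPM) and the highest WT library (0.316 CPM). Shisa3 had been picked earlier on these same samples for differing from WT, so its place against WT is no independent evidence. Its log2 difference of 2.22 ± 0.44 had the lowest adjusted p of all uncalled genes (0.18 by edgeR) and was called in 4 of 27 alternatives, DESeq2 and limma-voom among them.

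Hgf, the ligand of the Met receptor, had 1.67, 5.48, 2.41 and 5.16 CPM in del/CreERT2, against 0.877, 0.92, 0.729 and 0.946 CPM in del/+ (log2 2.09 ± 0.49, adjusted p = 0.273). The del/CreERT2 libraries were uneven, with 2 and 4 high, while the del/+ libraries were tight. Tnc, the matrix glycoprotein tenascin C, averaged 18.8 ± 5.75 and 7.46 ± 2.84 CPM (log2 1.33 ± 0.32, adjusted p = 0.344), with its highest value of 26.4 CPM in del/CreERT2 3.

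Pdgfc, a ligand of the PDGF receptor alpha, averaged 7.01 ± 1.32 CPM in del/CreERT2 and 3.32 ± 0.466 CPM in del/+ (log2 1.08 ± 0.27). Pappa, a protease that frees insulin-like growth factors, averaged 6.94 ± 1.44 and 3.34 ± 0.715 CPM, and Has2, the hyaluronan synthase of the cardiac jelly, 21.6 ± 2.04 and 13.3 ± 3.05 CPM. Ecm2, a matrix protein, averaged 5.72 ± 0.555 and 3.4 ± 0.793 CPM. The others were Meis1, a homeodomain factor (41.1 ± 1.78 and 27.7 ± 1.07 CPM), Prpf39, a splicing factor (31.0 ± 2.08 and 20.6 ± 2.91 CPM), Lphn3, an adhesion receptor (9.19 ± 1.38 and 5.55 ± 1.01 CPM), Wsb1, a ubiquitin ligase adaptor (23.0 ± 4.28 and 14.2 ± 3.02 CPM), and Fsd1l (20.7 ± 2.81 and 12.9 ± 0.623 CPM), with the del/CreERT2 mean first.

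**Figure D3:**
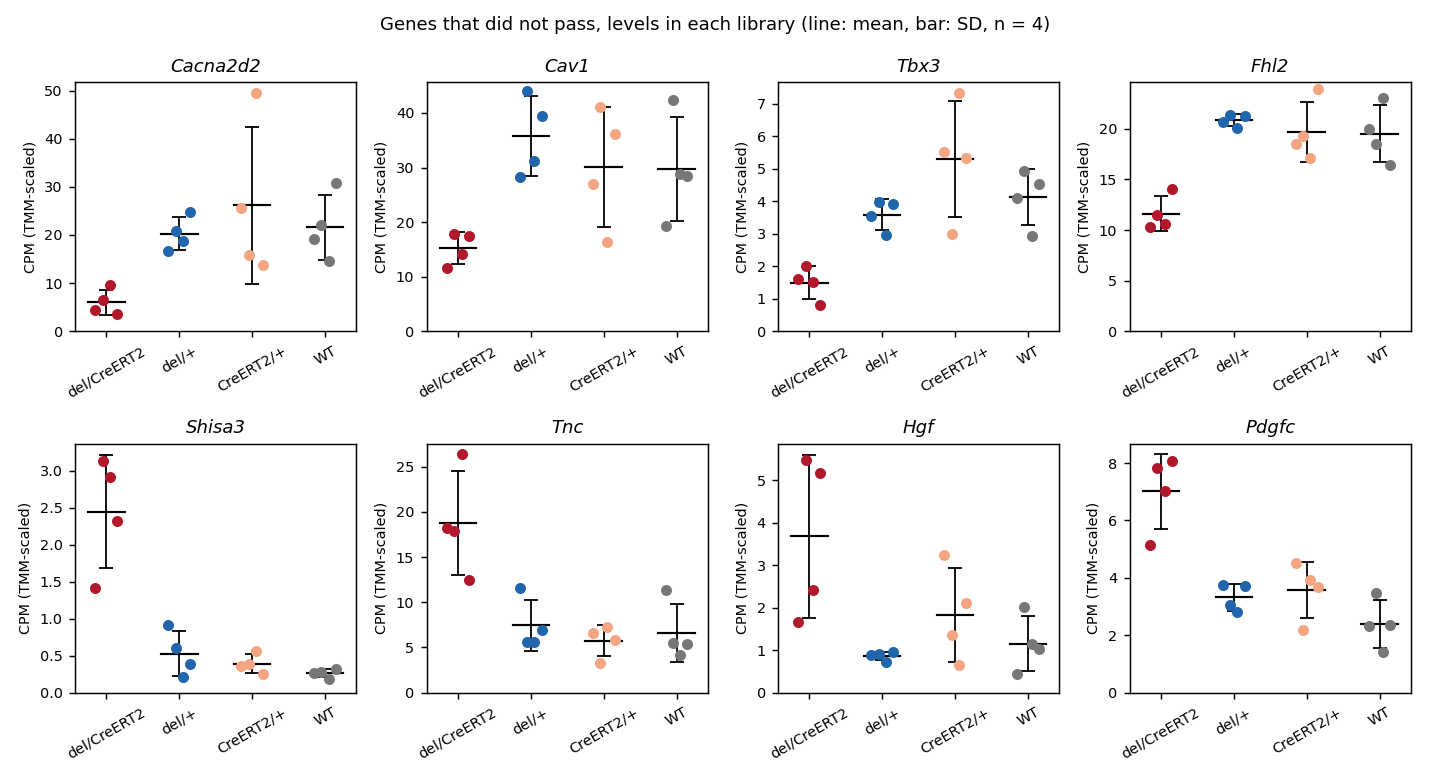
TMM-scaled CPM (y axis, from 0) in each library for 4 genes lower (top row: Cacna2d2, Cav1, Tbx3, Fhl2) and 4 higher (bottom row: Shisa3, Tnc, Hgf, Pdgfc) in del/CreERT2 than in del/+; points are libraries, lines means and bars SD (n = 4). None passed the test; the del/CreERT2 and del/+ points do not overlap in any panel, for example 3.56 to 9.53 against 16.7 to 24.7 CPM for Cacna2d2.

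The cardiac gene lists were read next, by their count of called members and their median beside the median of 0.0 over all tested genes. Of all 14612 tested genes, 7232 had a negative difference. At an unadjusted p under 0.05 (edgeR), 2.21% of all tested genes were lower and 2.87% higher. Of 5 T-box genes tested, none was called and all 5 had a negative difference (median -0.40). The 5 include Tbx5, the altered gene itself, and Tbx3, picked earlier on these same samples, so their shared sign is no independent evidence about the family. Tbx18, of the sinus horns and epicardium, averaged 10.4 ± 2.87 CPM in del/CreERT2 and 13.8 ± 1.92 CPM in del/+ (log2 -0.4 ± 0.22). The mean log2 CPM of the 5 ran from 3.02 to 3.4 in del/CreERT2 libraries and from 3.47 to 3.77 in del/+ libraries. Among 14 other cardiac transcription factors none was called, 2 were higher at an unadjusted p under 0.05 and the median was 0.20 (0.06 with 7SK as a covariate). Those 2 were Smyd1, a muscle histone methyltransferase (188 ± 26.1 and 114 ± 39.3 CPM; log2 0.72 ± 0.26), and Mef2c, which drives muscle genes (72.2 ± 7.46 and 51.2 ± 7.12 CPM; log2 0.5 ± 0.18). Nkx2-5 and Gata4, partners of Tbx5, stood at log2 0.30 ± 0.25 and 0.02 ± 0.19.

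Of 18 tested genes reported to respond to Tbx5 in the heart, Gja5 was called, 3 were lower at an unadjusted p under 0.05, Gja5 and Tbx3 among them, and 1 higher (Bmp4). Over all tested genes 2.21% were lower and 2.87% higher at that level. The median of the 18, at -0.25, turned to 0.01 without del/+ 4. It turned to 0.11 over members with a mean of at least 5 CPM, so no direction is read from it. Nppa, the classic atrial natriuretic target, was among those without a difference in that direction, at 43.5 CPM in del/CreERT2 and 34.5 CPM in del/+ (log2 0.33 ± 0.34). Nppb, the related natriuretic peptide, averaged 108 ± 41.2 and 67.2 ± 13.7 CPM, with 52.4 CPM in del/CreERT2 3 and 106 to 150 CPM in the other 3 (log2 0.68 ± 0.34). Nppb was called as higher (adjusted p = 0.0368 by edgeR) in 1 of 28 alternatives, the one without del/CreERT2 3, CreERT2/+ 3 and WT 4.

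Markers of the chambers and nodes differed in their medians. For 12 atrial markers the median was -0.60, 2 were called lower (Stard10 and Gja5) and 1 more, Kcnj3, was lower at an unadjusted p under 0.05. Over all tested genes 0.0205% were called. The list was drawn up with earlier results known, and Stard10 and Gja5 had been picked before on these same samples. Their calls are therefore no independent evidence about atrial genes. The atrial median was -0.26 without del/+ 4 and -0.18 over the members with a mean of at least 5 CPM. Kcnj3, the acetylcholine-gated potassium channel of atrium and nodes, had 0.784 to 1.99 CPM in del/CreERT2 and 1.79 to 4.96 CPM in del/+, where del/+ 1 lay inside the del/CreERT2 range (log2 -1.18 ± 0.34). The abundant atrial myosin light chains did not follow: Myl7 stood at log2 -0.24 ± 0.28 and Myl4 at 0.10 ± 0.34. For 12 genes of the sinus node and venous pole the median was -0.54, or -0.29 over those with a mean of at least 5 CPM, and none was called. Vsnl1, a calcium sensor, ranged from 2.7 to 14.7 CPM in del/CreERT2 and from 12.3 to 47.3 CPM in del/+ (log2 -1.38 ± 0.44). Hcn4, the pacemaker channel, had 2.93 to 6.07 CPM in del/CreERT2 and 5.07 to 8.47 CPM in del/+ (log2 -0.68 ± 0.34). For 11 ventricular markers the median was 0.01, and Fhl2 was the 1 member at an unadjusted p under 0.05. For 14 trabecular genes the median was -0.01, with Gja5 called.

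Sodium and potassium channel genes lay mostly on the low side, and none was called. Of 18 tested, 14 had a negative difference and 3 were lower at an unadjusted p under 0.05, among them Kcnj3 and Kcnh2, the rapid repolarizing channel (20.3 ± 2.93 CPM in del/CreERT2 and 28.2 ± 4.06 CPM in del/+, log2 -0.48 ± 0.2). Over all tested genes, 7232 of 14612 had a negative difference and 2.21% were lower at that level. The median of the 18 was -0.51, and it stayed between -0.54 and -0.39 over 28 other settings. The mean log2 CPM of the 18 ran from 1.86 to 1.95 in del/CreERT2 and from 2.11 to 2.31 in del/+, without overlap. Of 20 calcium genes tested, none was called, and the median of 0.06 ranged from -0.13 with 7SK as a covariate to 0.12 over 28 alternatives. Within that list the auxiliary subunits lay on opposite sides, with Cacna2d2 low and Cacna2d1 at 21.1 ± 4.4 CPM in del/CreERT2 and 15 ± 1.71 CPM in del/+ (log2 0.49 ± 0.23). Per kilobase, Cacna2d2 was at 0.994 CPM in del/CreERT2 and 3.36 CPM in del/+, and Cacna2d1 at 2.51 and 1.79 CPM. Casq2, a calcium buffer of the sarcoplasmic reticulum, averaged 12.2 ± 4.45 and 6.66 ± 2.54 CPM (log2 0.87 ± 0.32), and it varied widely among del/CreERT2 libraries (7.33 to 17.3 CPM).

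The contractile genes were near the background. Of 22 sarcomere genes none was called and the median was 0.06. Myh6, the alpha myosin heavy chain, was the 1 member at an unadjusted p under 0.05: it had 340, 342, 339 and 259 CPM in del/CreERT2, against 445, 570, 465 and 581 CPM in del/+ (log2 -0.69 ± 0.22, adjusted p = 0.732 by edgeR). The groups did not overlap, as held for 4.19% of all tested genes. Within its genotype del/CreERT2 4 lay below the other 3, which were close together. Myh7, the beta chain, had 855 ± 141 CPM in del/CreERT2 and 691 ± 69.1 CPM in del/+ (log2 0.31 ± 0.24), with overlap. Per kilobase, Myh6 was at 50.0 CPM and Myh7 at 99.6 CPM in del/CreERT2, against 80.4 CPM for each in del/+.

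**Figure D4:**
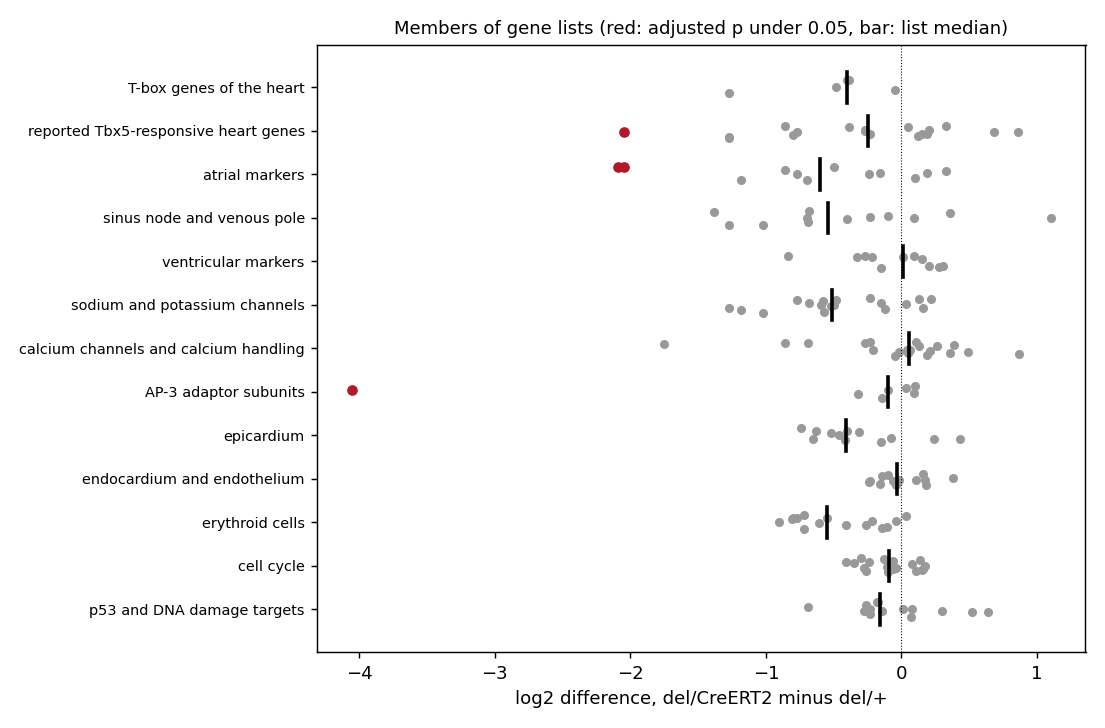
Log2 differences between del/CreERT2 and del/+ (x axis) for the tested members of 13 gene lists (rows); each point is a gene, red points passed an adjusted p of 0.05, and black bars are list medians. The medians of atrial markers (-0.60; -0.26 without del/+ 4), sinus node genes (-0.54; -0.29 over members of at least 5 CPM) and sodium and potassium channels (-0.51) lie on the low side, and those of ventricular markers (0.01) and calcium genes (0.06) near 0.

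Developmental signals held single genes at an unadjusted p under 0.05 and no called gene. Of 18 outflow and axon guidance genes, 5 were lower and 1 higher at that level (median -0.10). Over all tested genes these shares were 2.21% and 2.87%. Ntn1, the guidance cue netrin 1, averaged 2.13 ± 1.0 CPM in del/CreERT2 and 4.37 ± 1.15 CPM in del/+ (log2 -1.06 ± 0.33), and its receptor Dcc 0.262 ± 0.165 and 1.01 ± 0.745 CPM (log2 -1.97 ± 0.59), with 2.12 CPM in del/+ 2. Robo2, a Slit receptor, averaged 19.7 ± 7.9 and 10.2 ± 2.86 CPM (log2 0.94 ± 0.31), with 8.53 CPM in del/CreERT2 1 and 19.6 CPM or more in the other 3. Of 17 BMP pathway genes the median was 0.06. The ligands Bmp4 and Bmp7 were named for their low p within the list, and neither passed (adjusted p = 0.904 each by edgeR). Bmp4 had 3.38 to 5.96 CPM in del/CreERT2 and 1.45 to 3.2 CPM in del/+. Bmp7 had 10.4 to 16.3 CPM in del/CreERT2 and 17.9 to 21.7 CPM in del/+. Neither overlapped, as held for 4.19% of all tested genes. For 14 retinoic acid genes the median was -0.01, and for 9 genes of the second heart field and Hedgehog signalling -0.21. Aldh1a2, the retinoic acid synthase shared by the venous pole and epicardium, averaged 3.98 ± 0.918 and 6.6 ± 2.51 CPM (log2 -0.74 ± 0.26).

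Markers of the other cells in a heart were set beside these values. Of 14 tested endocardial and endothelial markers none was called or reached an unadjusted p under 0.05 (median -0.04), and their summed level was 404 to 435 CPM in del/CreERT2 and 405 to 488 CPM in del/+. Endothelium is one of the tissues that use Gja5. Of 12 epicardial markers 3 were lower at an unadjusted p under 0.05 (Aldh1a2, Sema3d and Lrrn4), with a median of -0.41 and summed levels of 106 to 136 CPM in del/CreERT2 and 127 to 167 CPM in del/+. Of 15 erythroid markers 14 had a negative difference (median -0.55), and the sums were 2840 to 4020 CPM in del/CreERT2 and 4010 to 5980 CPM in del/+. The erythroid median was -0.23 without del/+ 1 and -0.07 with 7SK as a covariate. Over all tested genes, 7232 of 14612 had a negative difference and 2.21% were lower at an unadjusted p under 0.05. Cushion and valve mesenchyme markers had a median of -0.04 over 14 genes, with Has2 the 1 member at an unadjusted p under 0.05. The part that the epicardial and erythroid differences play in the other results was not tested.

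Rarer cell types had few counts. Leukocyte markers summed to 13.7 to 24.6 CPM in del/CreERT2 and 18.3 to 37.0 CPM in del/+ (11 tested, with a median of 0.14 that ranged from -1.43 to 0.52 over 28 alternatives). Their members disagreed: Lyz2 was low, and Ptprc, the pan-leukocyte CD45, had 1.01 to 1.45 CPM in del/CreERT2 and 0.139 to 0.731 CPM in del/+ (log2 1.63 ± 0.73). Endoderm and liver markers summed to 7.14 to 34.7 CPM in del/CreERT2 and 3.3 to 285 CPM in del/+. The upper end came from del/+ 1, where Alb was at 51.4 CPM, while Alb was at 0.0 to 0.04 CPM in the other 3 del/+ libraries. Neural crest, glial and neuronal markers, which bear on Ap3b2 as a neuronal gene, summed to 4.58 to 6.62 CPM in del/CreERT2 and 4.06 to 5.8 CPM in del/+, and Tubb3, a neuronal tubulin, was at log2 0.23 ± 0.39. Of the 13 genes on that list 8, Sox10 among them, were too low to test, and none was called. Of 11 limb, body wall and skeletal muscle markers 2 were tested, with 0 called. Lhx2, a limb and head homeodomain gene, ranged from 0.147 to 2.34 CPM in del/CreERT2 and from 0.04 to 0.953 CPM in del/+.

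Growth, stress and energy lists held no called gene. The medians were -0.09 for 20 cell cycle genes, of which 0 reached an unadjusted p under 0.05, -0.15 for 14 p53 and DNA damage targets, 0.07 for 14 immediate early and stress genes, -0.12 for 18 oxidative phosphorylation genes and 0.06 for 18 glycolysis and hypoxia genes. With 7SK as a covariate the p53 and oxidative phosphorylation medians were 0.18 and 0.20, and the stress median was -0.07 without del/+ 4. High Cre activity is known to damage DNA in some settings, and whether it did so in these hearts was not tested. The 1 p53 target at an unadjusted p under 0.05 was Mdm2, which limits p53 itself, at 17.7 to 27.4 CPM in del/CreERT2 and 15.6 to 17.0 CPM in del/+ (log2 0.52 ± 0.2, adjusted p = 0.904 by edgeR), and CreERT2/+ hearts without the del allele had 19.5 to 28.0 CPM and WT hearts 15.1 to 23.0 CPM. Bax, a p53 target of cell death, averaged 8.83 ± 2.6 and 5.63 ± 2.18 CPM (log2 0.64 ± 0.34). Egr1, an immediate early gene, had 10.3 to 19.0 CPM in del/CreERT2 and 5.29 to 9.34 CPM in del/+ (log2 0.91 ± 0.31), and Cox5a of cytochrome oxidase 28.8 to 42.2 and 43.8 to 66.1 CPM (log2 -0.62 ± 0.24). The 9 tested chromosome 5 neighbours of Tbx5 had a median of -0.07 and no call, and of 5 sex-linked genes none was called.

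Whether the CreERT2 allele goes with a different change when del is present was tested with the interaction, which is del/CreERT2 minus del/+ less the difference of CreERT2/+ minus WT. It called 6 of 14612 genes (0.0411%; edgeR, adjusted p under 0.05), all with a negative value, where 634 (4.34%) had an unadjusted p under 0.05. Ap3b2 was 1 of them. Its log2 difference was -4.05 ± 0.33 between del/CreERT2 and del/+ and -0.37 ± 0.26 between CreERT2/+ and WT, an interaction of -3.68 ± 0.41 (95% interval -4.54 to -2.82, adjusted p = 8.13e-05). It was called in all 26 alternatives in which it was tested.

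For the other 5 called genes the larger difference lay between CreERT2/+ and WT, with WT the lowest of the 4 genotypes. Of these, Kcna1, Otx1, Med18 and Unc5d, like Ap3b2, had been picked earlier on these same samples because altered hearts differed from WT. Their low WT levels, and the interactions that rest on them, are therefore no independent evidence. Kcna1, a voltage-gated potassium channel, had 15.9 to 34.8 CPM in del/CreERT2, 28.8 to 53 CPM in del/+, 13.0 to 29.2 CPM in CreERT2/+ and 0.695 to 1.22 CPM in WT. Its interaction was -5.37 ± 0.45 (adjusted p = 7.12e-07 by edgeR), made of -0.58 ± 0.29 and 4.79 ± 0.35. Otx1, a homeodomain factor of the forebrain, averaged 2.64 ± 1.16 CPM in del/CreERT2, 2.07 ± 0.582 CPM in del/+, 2.38 ± 0.376 CPM in CreERT2/+ and 0.169 ± 0.0426 CPM in WT, with an interaction of -3.45 ± 0.5 (adjusted p = 0.00228).

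Med18, a subunit of the Mediator complex, averaged 6.78 ± 2.08 CPM in del/CreERT2, 10.1 ± 2.3 CPM in del/+, 8.3 ± 2.08 CPM in CreERT2/+ and 1.8 ± 0.446 CPM in WT (interaction -2.78 ± 0.38, adjusted p = 0.00117). Unc5d, a netrin receptor, varied more, from 0.653 to 7.31 CPM in del/CreERT2 and from 4.0 to 17.8 CPM in del/+ (interaction -4.55 ± 0.83, adjusted p = 0.0446), and it was called in 12 of 26 alternatives. Its call was lost without any 1 WT library, without del/+ 2 or 4, without CreERT2/+ 1, 2 or 4, without del/CreERT2 2 or 4, with Xist as a covariate and in limma-voom. With 7SK as a covariate the Unc5d interaction was -1.0 (adjusted p = 0.577 by edgeR). 7SK, a small nuclear RNA that restrains transcription elongation, ranged from 46.43 to 218.1 CPM in del/CreERT2, 174.1 to 691.4 CPM in del/+, 30.96 to 162.7 CPM in CreERT2/+ and 12.26 to 29.64 CPM in WT (interaction -4.33 ± 0.73, adjusted p = 0.0192). It has 14 tested entries, of which this one holds 90.1% of the counts, and its call was lost without WT 1, 3 or 4, del/+ 2, CreERT2/+ 1 or 2, or del/CreERT2 1 or 4. With 7SK as a covariate, Otx1 and Med18 were also no longer called (adjusted p = 0.137 and 0.153 by edgeR, each the highest over its alternatives), while Kcna1 and Ap3b2 were.

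Gja5 and Stard10 did not pass the interaction. For Gja5 the difference was -2.05 ± 0.24 with the del allele and -0.69 ± 0.23 without it (interaction -1.36 ± 0.33, adjusted p = 0.352 by edgeR). For Stard10 these values were -2.09 ± 0.33, -0.21 ± 0.31 and -1.88 ± 0.46 (adjusted p = 0.352). Cacna2d2 had -1.75 ± 0.36 and 0.28 ± 0.34 (interaction -2.02 ± 0.49, adjusted p = 0.352), and Tbx3 -1.27 ± 0.3 and 0.36 ± 0.29 (interaction -1.63 ± 0.41, adjusted p = 0.473).

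**Figure D5:**
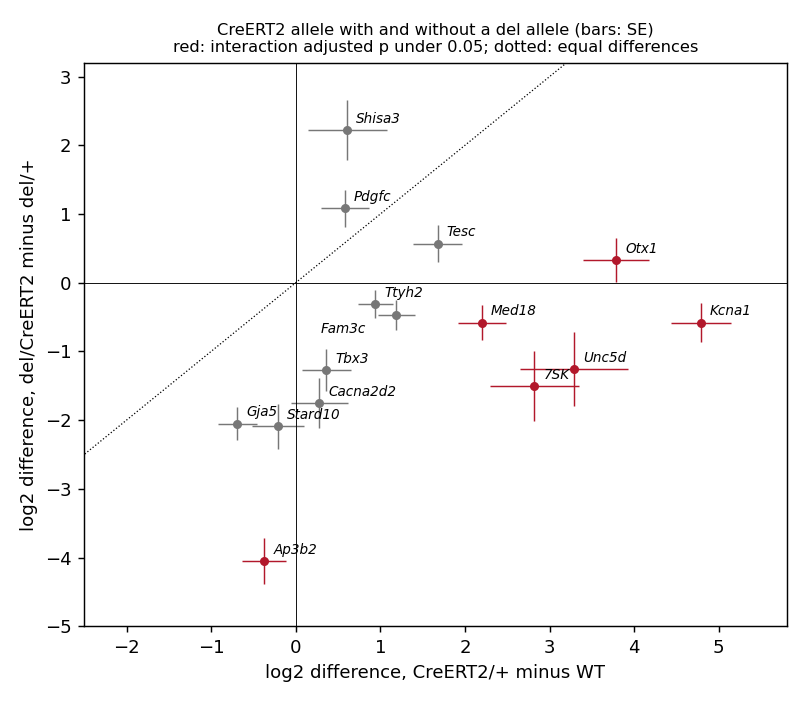
Log2 difference of CreERT2/+ minus WT (x axis) against that of del/CreERT2 minus del/+ (y axis) for 15 named genes; bars are SE, the dotted line marks equal differences, and red marks genes with an interaction adjusted p under 0.05. Ap3b2 lies far below the line at -4.05 on the y axis, while Kcna1, Otx1, Med18, Unc5d and 7SK lie to the right, from 2.20 to 4.79 on the x axis. All red genes but 7SK had been picked earlier on these same samples for differing from WT.

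A set of 19 genes had earlier been picked on these same samples because altered hearts differed from WT, so their directions are no independent evidence. In del/CreERT2 against del/+, 3 of the 19 were called (Ap3b2, Gja5 and Stard10), and in all 11 were lower and 4 higher at an unadjusted p under 0.05. Over all tested genes 2.21% were lower and 2.87% higher at that level. Fam134b, which marks endoplasmic reticulum for autophagy, had 5.49 to 8.93 CPM in del/CreERT2 and 10 to 16.2 CPM in del/+, with 10.8 to 21.8 CPM in CreERT2/+ and 21.3 to 26.8 CPM in WT. Ddc, which makes dopamine and serotonin, had 13.6 to 24.5 CPM in del/CreERT2 and 10.1 to 13.8 CPM in del/+, against 6.27 to 8.86 CPM in CreERT2/+ and 6.92 to 8.8 CPM in WT (del/CreERT2 minus del/+ log2 0.75 ± 0.2, adjusted p = 0.562 by edgeR). Tesc, a calcineurin B homologue also on chromosome 5, averaged 5.18 ± 0.973 CPM in del/CreERT2, 3.47 ± 0.91 CPM in del/+, 2.98 ± 0.632 CPM in CreERT2/+ and 0.919 ± 0.267 CPM in WT.

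The authors' deposited table for the same pair of genotypes gives its log2 values as del/+ over del/CreERT2, the reverse of the direction used here. In the authors' deposited table the lowest adjusted p of 14820 genes is 0.124, so that none is under 0.05, and 628 have an unadjusted p under 0.05. Its log2 value is 4.12 for Ap3b2, 2.06 for Gja5 and 2.09 for Stard10 in the authors' deposited table, and the direction matches for all 24 of the called and top-ranked genes named above.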

How the data were processed

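The labels' protocols name Qiazol and miRNeasy micro reagents for the RNA and the Ovation V2 kit for the libraries. TopHat2, featureCounts, edgeR and build mm9 are named per the submitters' processing notes. Their versions and the strand setting: not given in the sources used here. Overlapping and antisense genes therefore cannot be separated. Per the file headers, the values deposited by the authors are raw counts of reads per gene, all of them whole, not expected counts of a quantification model, and they were not rounded. The authors' deposited comparison of these genotypes holds a log2 fold change, a p-value and its adjusted form for each gene, and is printed only where named. Another 54 columns with values of single samples or means stayed unused. Of 37991 genes, 415 have no symbol, with 0.117% of the counts or less in each library.

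Counts were tested with edgeR 4.0.16 in R 4.3.3: default low-count filter (14612 genes), TMM, 1 mean per genotype over all 16 libraries (12 residual degrees of freedom), quasi-likelihood tests, and Benjamini-Hochberg adjustment over all tested genes at 0.05. Every adjusted p is from this test unless another tool is named. Levels are TMM-scaled CPM with SD over 4 libraries, and errors of log2 differences are SE. The procedure was tested on simulated data. Alternatives were other size factors, no filter or a stricter one, DESeq2 1.42.0, limma-voom (limma 3.58.1), the 8 libraries alone, covariates, and leaving out libraries. No 2 libraries of a genotype matched within sampling noise, so all were kept. The pairing by replicate number was checked: deviations of same-numbered del/CreERT2 and del/+ libraries correlated at -0.031 to 0.099, so the numbers were not taken as pairs.

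The genes and the 33 lists were chosen with earlier results of these data known. The rule names Tbx5, called genes, the 12 with the lowest p in each direction among genes of at least 1 CPM whose libraries do not overlap, the 3 lowest-p members of each list, and the genes picked before on these samples. Gja1, Nkx2-5, Gata4, Nppa, Myl7, Myl4, Acp6, Bcl9 and Gpr89 were added after their values were seen. A gene that the rule names is not reported here.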

Additional observations from a re-analysis of the deposited data

Results flagged for a closer look

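Each genotype's lowest and highest library was compared with the other 3 for the named genes (Dixon's test, 4 libraries). Of 210 groups 15 were marked, where chance marks about 1 in 20. del/CreERT2 3, the library low in mitochondrial ribosomal RNA, was the highest of its genotype for Hcn4 (6.07 CPM, the others 2.93 to 3.34) and Isl1 (2.12 CPM, the others 0.639 to 0.833), and the lowest for Aldh1a2 (2.61 CPM, the others 4.27 to 4.56). del/CreERT2 1 was the highest for Ntn1 (3.63 CPM) and BC053393 (0.0981 CPM, with 0.0 in the others) and the lowest for Ppargc1a (57.6 CPM). del/CreERT2 2 was the highest for Klf1 (1.51 CPM) and the lowest for Acot11 (0.269 CPM), and del/CreERT2 4 was the lowest for Myh6 (259 CPM).

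Among del/+ libraries, del/+ 1 was the highest for Alb (51.4 CPM, the others 0.0 to 0.04), Rbp4 (10.9 CPM, the others 0.172 to 1.04) and Lhx2 (0.953 CPM, the others 0.04 to 0.086). del/+ 2 was the highest for Dcc (2.12 CPM) and Unc5d (17.8 CPM), and del/+ 3 for BC053393 (0.486 CPM).

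The difference that goes with the CreERT2 allele was not the same with and without the del allele, by the interaction test, for Ap3b2 (-3.68), Kcna1 (-5.37), Otx1 (-3.45), Med18 (-2.78), Unc5d (-4.55) and 7SK (-4.33), as log2 values. All but 7SK had been picked earlier on these same samples for differing from WT, so their values are no independent evidence.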

How the results depend on the processing

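Ap3b2 and Gja5 stayed called as lower in every alternative that tested them, with log2 differences of -4.37 to -3.92 over 27 and -2.27 to -1.90 over 28 alternatives, and Stard10 in 21 of 28. The authors' deposited table is not among these alternatives, and none of these genes has an adjusted p under 0.05 in it. The count of called genes (3) was 65 with no filter (21 higher, 44 lower), 22 with DESeq2 (7 and 15), 9 with limma-voom (1 and 8), 13 with only the 8 libraries compared (5 and 8), 16 when the 3 libraries poorest in mitochondrial ribosomal RNA were left out (8 and 8) and 6 with its share as a covariate (1 and 5). Leaving out 1 library gave 2 to 6, with 6 without CreERT2/+ 3. The interaction count (6) was 73 with no filter, 16 with DESeq2, 13 with limma-voom, 24 without those 3 libraries, 2 with 7SK as a covariate and 13 with the mitochondrial share as one. Leaving out 1 library gave 4 to 24, with 24 without CreERT2/+ 3. The cause of these changes was not tested.

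For Tbx5, the exact p was 0.0571 without any 1 of the 8 libraries, at log2 differences of -0.54 to -0.30 (-0.46 without del/CreERT2 3). Under the replicate block Tbx5 was at -0.44 (exact p = 0.125, the smallest that 4 pairs allow). The replicate block left 3 and 6 calls, the same genes. Same-numbered del/CreERT2 and del/+ libraries correlated at -0.031 to 0.099 and their other pairs at -0.166 to 0.109. Over all 4 genotypes, same-numbered pairs ran from -0.325 to 0.487 and other pairs from -0.343 to 0.481, so the numbers were not taken as pairs.

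Signs that turned round were all of genes that did not pass. With 7SK as a covariate the log2 differences were -0.04 for Gjc1, 0.05 for Tnni3, -0.09 for Flt1, 0.13 for Hapln1, 0.1 for Dcn, -0.18 for Erbb3, 0.03 for Meox1 and 0.01 for Kcna1. Alb was at 2.65 with limma-voom and 0.06 with Xist as a covariate, Rbp4 at 0.11 with limma-voom, Erbb3 at -0.01 with limma-voom and -0.09 without the 3 libraries, and Meox1 at 0.11 without the 3 libraries. Without 1 library at a time, Alb ran from -3.37 to 6.2 and Rbp4 from -2.41 to 0.73, both highest without del/+ 1. Over the same fits Meox1 ran from -0.64 to 0.25, Erbb3 from -0.1 to 0.42 and Nos1 from -0.04 to 1.19. Over 31 lists and their alternatives, a list's median moved beyond the spread between libraries in 39 cases and stayed within it in 828. Medians that changed sign include the Tbx5-responsive list (-0.26 to 0.11 over 28 alternatives), the calcium list (-0.13 to 0.12), leukocytes (-1.43 to 0.52) and endoderm and liver (-1.82 to 1.92, the upper end without del/+ 1). No neural crest gene passed the stricter filter on low counts, so that value is missing.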

Other observations

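The del/CreERT2 libraries held counts in more of the genes too low to test: 5958 to 7198 such genes had a count in del/CreERT2 and 3817 to 4636 in del/+. These genes took 0.174% to 0.362% of the counts outside mitochondrial ribosomal RNA in del/CreERT2 and 0.14% to 0.201% in del/+, highest in del/CreERT2 1. CreERT2/+ 3 was similar, with 7294 such genes and 0.318%, while the other CreERT2/+ and the WT libraries held 3831 to 5063. What sets this number was not tested.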
